A study of Homo sapiens with 16 samples.

Results

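The 40 genes described here belong to the programme of G2 and mitosis, and were taken by symbol from a fixed list. All 40 were found among the 78894 genes of the deposited count table, and all 40 were among the 16790 genes that passed the filter on low counts. They were measured in MCF10DCIS.com, a premalignant human breast line whose three-dimensional cultures grow as lesions that resemble ductal carcinoma in situ. All wells descend from 1 clone in which Cas9 had disrupted PCSK5 and which had been recovered in medium with 10 ng/ml GDF11. PCSK5 is a secreted protease of the proprotein convertase family, which cuts ligand precursors, and that of the TGF-beta family member GDF11 is among its substrates. The clone was then given PCSK5 back, with a V5 tag and a tetracycline-regulated promoter. The WT group carried the wildtype allele, the M452I group and the T288P group each a substituted allele, and each of these 3 lines is a single hygromycin-selected polyclonal line. The fourth group, T288P+GDF11, was T288P grown with recombinant mature GDF11 at 250 ng/ml throughout. Every group had 4 wells, grown on matrigel with 2% matrigel and 5 ng/ml EGF in the medium from 5000 cells per well, given 1 µg/ml doxycycline from day 4 and harvested on day 8. The 16 poly(A)-selected libraries held 28.5 to 50.8 M counts. Levels are given as CPM, counts per M counts of the library after TMM scaling, which adjusts library sizes for differences in RNA composition. PCSK5 itself had mean levels (SD over 4 wells) of 45.4 ± 12 CPM with the wildtype allele, 39.5 ± 19.3 with M452I, 37.7 ± 13.5 with T288P, and 40.8 ± 10.7 when GDF11 was added, and its counts do not tell the alleles apart.

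A cell that has copied its DNA passes through G2 and then divides. CDK1 with its cyclins starts mitosis, kinases such as PLK1 and AURKA build the spindle, the spindle checkpoint holds the chromosomes until all are attached, and the anaphase-promoting complex with CDC20 then releases them. Most of these genes are transcribed late in the cell cycle, under the B-MYB, FOXM1 and DREAM complexes, so that their RNA in bulk tissue follows the share of cells in or near mitosis. The measurements are of bulk RNA, in which fewer dividing cells and less RNA per dividing cell cannot be told apart.

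Promoter sequences show what these genes have in common outside the counts. RefSeq promoters (GRCh38.p14), each from 250 bases before to 50 bases after a transcription start, were matched by symbol for 33 of the 40 genes, with 43 starts in all. AURKA, TTK, BUB3, BIRC5, TPX2, UBE2C and FOXM1 had no entry. The letters TTTGAA or TTCGAA were searched on both strands. They are forms of the core of the cell cycle genes homology region (CHR), which DREAM, B-MYB and FOXM1 complexes use. No other form of the CHR was searched. The letters CCAAT of the box bound by NF-Y were searched in the same way. A CHR match lay in 28 of the 43 promoters (65.12%), against 16.35% of all 35116 promoters of the same length. A CCAAT match lay in 33 (76.74%) against 34.61%, and both kinds in 24 (55.81%) against 6.38%. Among 44 promoters of S phase genes the CHR letters were in 3 (6.82%), while the CCAAT letters were in 27 (61.36%). Among 54 promoters of mitosis genes outside the 40, the CHR letters were in 36 (66.67%), the CCAAT letters in 36 (66.67%) and both in 28 (51.85%). The matches are therefore not particular to the 40 genes. A match is a description of the letters and does not show a bound site. The promoters of CDC20, HMMR, TOP2A and CKS2 are printed because these genes were called in the GDF11 comparison, and those of PLK1 and CCNB1 as mitotic regulators that were not, with capitals for every CHR or CCAAT match on either strand.
CDC20 promoter: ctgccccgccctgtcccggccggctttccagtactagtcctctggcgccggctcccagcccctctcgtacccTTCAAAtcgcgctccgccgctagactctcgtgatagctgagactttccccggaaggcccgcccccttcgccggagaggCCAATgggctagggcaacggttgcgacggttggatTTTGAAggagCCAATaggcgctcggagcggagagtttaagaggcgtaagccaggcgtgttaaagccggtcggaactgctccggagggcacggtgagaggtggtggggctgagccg
HMMR promoter: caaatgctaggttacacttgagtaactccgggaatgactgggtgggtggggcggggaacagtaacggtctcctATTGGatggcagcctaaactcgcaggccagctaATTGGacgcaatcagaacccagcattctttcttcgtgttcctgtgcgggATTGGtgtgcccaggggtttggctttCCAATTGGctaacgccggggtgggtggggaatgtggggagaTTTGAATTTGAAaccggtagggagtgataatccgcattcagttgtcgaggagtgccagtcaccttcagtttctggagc
TOP2A promoter: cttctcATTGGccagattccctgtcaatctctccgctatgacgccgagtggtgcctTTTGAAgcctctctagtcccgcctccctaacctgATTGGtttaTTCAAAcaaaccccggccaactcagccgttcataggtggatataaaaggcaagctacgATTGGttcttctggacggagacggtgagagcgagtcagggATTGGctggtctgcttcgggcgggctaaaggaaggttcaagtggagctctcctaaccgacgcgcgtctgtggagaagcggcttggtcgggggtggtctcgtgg
CKS2 promoter: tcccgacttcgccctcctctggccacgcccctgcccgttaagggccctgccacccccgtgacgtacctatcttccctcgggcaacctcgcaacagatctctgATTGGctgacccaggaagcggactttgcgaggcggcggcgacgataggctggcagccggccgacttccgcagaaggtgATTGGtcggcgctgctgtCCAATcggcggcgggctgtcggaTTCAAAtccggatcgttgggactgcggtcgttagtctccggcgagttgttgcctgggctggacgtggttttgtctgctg
PLK1 promoter: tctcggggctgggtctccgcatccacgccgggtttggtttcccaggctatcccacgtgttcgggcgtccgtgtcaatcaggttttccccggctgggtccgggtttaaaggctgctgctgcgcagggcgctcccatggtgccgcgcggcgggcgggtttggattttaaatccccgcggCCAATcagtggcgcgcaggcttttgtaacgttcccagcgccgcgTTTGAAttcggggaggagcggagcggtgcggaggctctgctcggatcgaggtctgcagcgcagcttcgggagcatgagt
CCNB1 promoter: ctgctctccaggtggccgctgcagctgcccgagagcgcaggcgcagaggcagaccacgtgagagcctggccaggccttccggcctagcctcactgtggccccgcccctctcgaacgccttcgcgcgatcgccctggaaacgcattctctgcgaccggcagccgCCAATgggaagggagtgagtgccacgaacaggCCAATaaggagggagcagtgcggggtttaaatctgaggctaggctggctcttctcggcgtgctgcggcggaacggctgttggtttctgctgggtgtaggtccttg

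These windows are chr1:43358731-43359030, plus strand, for CDC20; chr5:163460382-163460681, plus strand, for HMMR; and chr17:40417847-40418146, minus strand, for TOP2A. Those of CKS2, PLK1 and CCNB1 are chr9:89310945-89311244, plus strand, chr16:23678639-23678938, plus strand, and chr5:69166900-69167199, plus strand. Each is written 5′ to 3′ in the direction of transcription. The windows of HMMR, which was higher with GDF11, and of CDC20, TOP2A and CKS2, which were lower, all held CHR and CCAAT matches. In CKS2 and PLK1 the CHR match began 29 bases before the start, and in HMMR 2 adjoining matches began 28 and 22 bases before it, with CCAAT and ATTGG overlapping further upstream. In CDC20 the nearer of 2 CHR matches began 65 bases before the start and the nearer of 2 CCAAT matches 55 bases before it. CCNB1 had 2 CCAAT matches and neither TTTGAA nor TTCGAA in this window, and other forms of the CHR were not searched. Of the 33 genes with an entry, 22 had both kinds of match in some window, and their log2 fold changes with GDF11 ran from -1.29 to 1.03, with a median of -0.092.

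The wells were compared before the groups. All 8 epithelial markers were detected in all 16 wells (summed 11975 to 13981 CPM), from TP63 at 14.9 to 47.5 CPM to LAMB3 at 3732 to 4987 CPM. Of 6 fibroblast markers COL3A1 and LUM were at 0 in every well, COL1A2 and PDGFRB at 0 in 15 and 14 wells, DCN at 0 in 6 and at most 1.24 CPM, and COL1A1 at 3.95 to 7.0 CPM. A pair of untreated wells lay far from the rest of their group. On the first principal component of log2 CPM, M452I replicate 4 scored 37.5, against -44.7 to -32.9 in the other M452I wells, and a list of 26 ribosomal protein genes held 4.35% of its counts against 5.84% to 6.0%. T288P replicate 1 scored -43.0 against 2.15 to 8.81 in the other T288P wells. By the chi-square per degree of freedom of their counts, T288P replicate 1 differed less from M452I replicates 1 to 3 (8.78 to 11.9) than from the other T288P wells (38.4 to 49.7). It was also near WT replicate 4 (11.6) and WT replicate 2 (23.6). M452I replicate 4 differed less from T288P replicates 3 and 4 (30.1 and 29) than from the other M452I wells (102 to 127). T288P+GDF11 replicate 4 (34.2) and WT replicate 3 (38.4) were also nearer to it than its own group. For T288P replicate 1, M452I replicates 1 to 3 were all near, while WT replicates 1 and 3 were farther (35.0 and 45.6). The wells nearest to M452I replicate 4 were T288P replicates 4 and 3, followed by wells of the other groups. What set these wells apart was not tested. Since no gene in the table identifies the allele of a well, the labels of these wells could not be checked, and results that rest on them are given with and without both. Both wells were picked after the data were seen, because each lay apart from its group. Leaving them out narrows their groups by choice, so calls without them are a description and not a test of the alleles.

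In WT cultures the 40 genes together made up 0.145% to 0.159% of all counts. Levels of different genes are compared here only as CPM per kb of annotated exon, joined over all transcripts of a gene. This length was 3931 bases for CDK1 and 2013 for PTTG1, against 1948 and 1070 in their longest transcripts. The order of genes below therefore depends on the length used. CKS2, the small CDK subunit, led with 66.3 ± 3.64 CPM per kb (SD, n = 4 wells), followed by the anaphase activator CDC20 with 50.7 ± 5.18 and the securin PTTG1 with 25 ± 2.03. The wells of CKS2, CDC20 and PTTG1 did not overlap. The DNA topoisomerase TOP2A (23.6 ± 1.25) overlapped with PTTG1, and the checkpoint protein BUB3 (20.9 ± 0.686) with the spindle assembly factor TPX2 (20.0 ± 0.847). CDK1 followed at 18 ± 0.664 and the cytokinesis scaffold ANLN at 17.7 ± 1.38, with overlapping wells. The lowest 3 of the 40 were HMMR (1.44 ± 0.362), the transcription factor FOXM1 (1.29 ± 0.219) and the kinetochore protein NDC80 (1.27 ± 0.218). With GDF11, CDC20 stood at 16.6 ± 2.04 CPM per kb and HMMR at 3.1 ± 0.175.

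**Figure D1:**
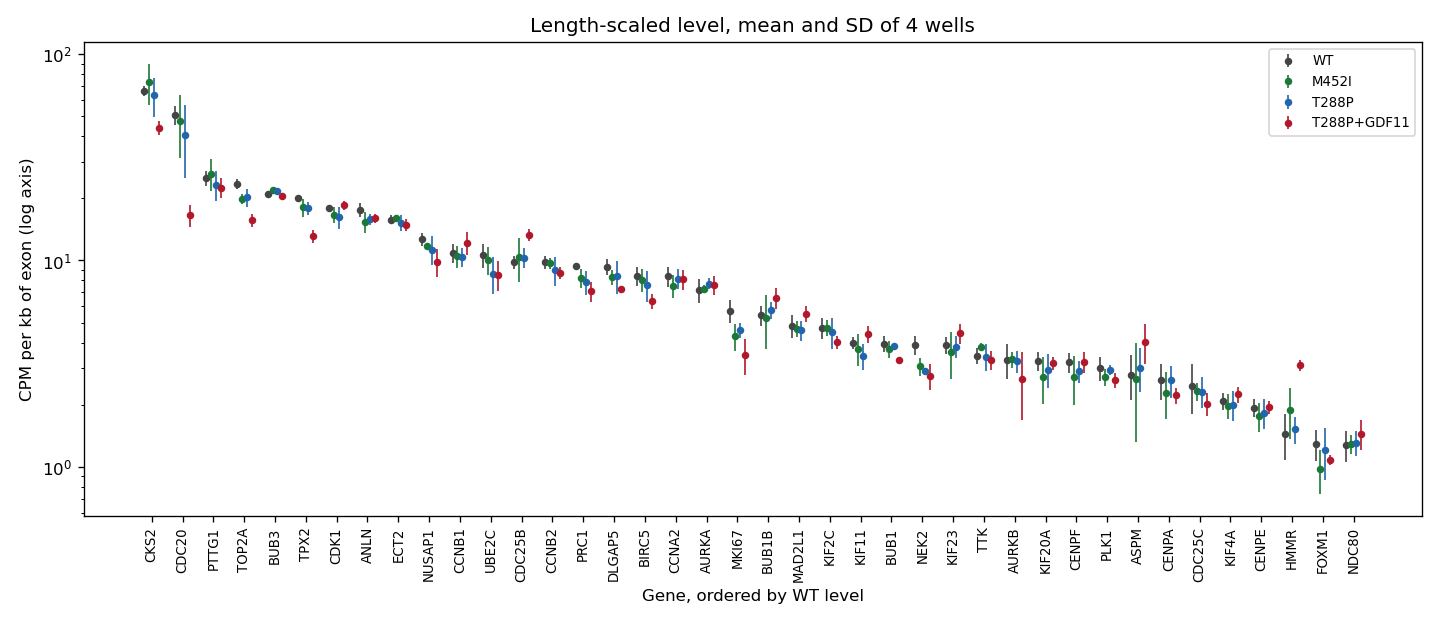
Level of each of the 40 genes as CPM per kb of annotated exon (log axis), ordered by WT, with a point for the mean and a line for the SD of the 4 wells of each group. CKS2 and CDC20 lead at 66.3 and 50.7 in WT, and the T288P+GDF11 points lie below the other groups for CDC20 and above them for HMMR.

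The T288P line with GDF11 was compared with the untreated T288P line to ask what mature GDF11, supplied from outside, changed. HMMR rose, while CDC20, TPX2, TOP2A and CKS2 fell. The other 35 genes, most cyclins, kinases, checkpoint and kinetochore genes among them, did not pass the test. The 5 called genes are 12.5% of the 40, and 12.9% of all 16790 tested genes were called in this comparison (5.07% higher, 7.88% lower), so the share was near the background. Of the 40 log2 fold changes 15 were positive and 25 negative, with a median of -0.040 against -0.015 over all genes. A gene was called at an edgeR adjusted p under 0.05.

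CDC20 (ENSG00000117399; chromosome 1, 43358955 to 43363203) encodes the activator that directs the anaphase-promoting complex to securin and cyclin B. Its untreated T288P wells held 131, 66.1, 71.9 and 63.5 CPM for replicates 1 to 4, and the T288P+GDF11 wells 29.7, 38.5, 31 and 36.2. The first T288P well was far above the other 3, and every GDF11 well lay below every untreated one. The mean fell 2.45-fold, from 83.1 ± 32 to 33.8 ± 4.16 CPM (edgeR log2 fold change -1.29 ± 0.26 SE, adjusted p = 0.00609). Without T288P replicate 1 the log2 fold change was -0.97 (edgeR adjusted p = 0.0172). The other genes of the same step did not pass the test: the ubiquitin-conjugating enzyme UBE2C had -0.022 (95% interval -0.36 to 0.31) and PTTG1 -0.044 (95% interval -0.32 to 0.23) on the log2 scale.

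HMMR (ENSG00000072571; chromosome 5, 163460203 to 163491945), a hyaluronan-binding protein that also organises spindle microtubules, was the one called gene that rose. The T288P wells held 5.29, 6.87, 5.12 and 6.65 CPM and the T288P+GDF11 wells 13.2, 11.6, 11.9 and 12.1. All treated wells were above all untreated ones, also above the highest of the 12 untreated wells of any line, M452I replicate 4 at 10.2 CPM. The mean rose 2.04-fold, from 5.98 ± 0.905 to 12.2 ± 0.688 CPM (edgeR log2 fold change 1.03 ± 0.20 SE, adjusted p = 0.00329).

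TPX2 (ENSG00000088325; chromosome 20, 31739271 to 31801805), which activates AURKA on the spindle, went the other way. It stood at 70.1, 59, 64.9 and 64.3 CPM in T288P and at 51.6, 47.8, 44.5 and 44.5 in T288P+GDF11, without overlap. The mean fell from 64.6 ± 4.53 to 47.1 ± 3.37 CPM (edgeR log2 fold change -0.45 ± 0.085 SE, adjusted p = 0.00241). The kinase AURKA, its partner, had 21.2, 22.9, 22 and 24.5 CPM untreated and 23, 23.7, 23.3 and 18.7 with GDF11, which overlapped (log2 difference -0.029, 95% interval -0.24 to 0.19). Among the other spindle proteins, the motor KIF11, which pushes the poles apart, was 13.4 to 18.8 CPM untreated and 19.5 to 23.3 with GDF11, without overlap but short of the test (edgeR log2 fold change 0.36 ± 0.13 SE, adjusted p = 0.07). ASPM, a spindle pole protein, spread from 32.2 to 55.8 CPM with GDF11 and from 22.3 to 41 without (edgeR log2 fold change 0.42 ± 0.29 SE, adjusted p = 0.37). NUSAP1 and DLGAP5, which bundle spindle microtubules, had log2 fold changes of -0.20 and -0.21.

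TOP2A (ENSG00000131747; chromosome 17, 40388516 to 40417950), the topoisomerase that untangles sister chromatids, stood at 146, 122, 117 and 137 CPM in T288P and at 108, 93.2, 106 and 95.1 with GDF11. The highest treated well was below the lowest untreated well. The mean fell from 130.3 ± 13.4 to 101 ± 7.61 CPM (edgeR log2 fold change -0.37 ± 0.085 SE, adjusted p = 0.00808). MKI67 (ENSG00000148773; chromosome 10, 128096659 to 128126385), which coats mitotic chromosomes and is the common marker of proliferation, held 57.9, 52.2, 63.3 and 62.3 CPM and, with GDF11, 50.8, 31.5, 48.7 and 46.7. Its groups did not overlap either, but it missed the threshold (means 58.9 ± 5.03 and 44.4 ± 8.79 CPM; edgeR log2 fold change -0.41 ± 0.14 SE, adjusted p = 0.056). Without T288P+GDF11 replicate 2, the lowest MKI67 well, the log2 fold change was -0.26, and under DESeq2 and limma-voom MKI67 passed (adjusted p = 0.0351 and 0.0451).

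CKS2 (ENSG00000123975; chromosome 9, 89311198 to 89316703) was the only called gene of the CDK1 group. Its wells held 50.6, 38.7, 31.7 and 34 CPM untreated and 27, 29.8, 25.3 and 25.5 with GDF11, without overlap, and the first T288P well was again the highest. The mean fell from 38.8 ± 8.42 to 26.9 ± 2.08 CPM (edgeR log2 fold change -0.53 ± 0.15 SE, adjusted p = 0.0296). Without T288P replicate 1 this call was lost (log2 fold change -0.36; edgeR adjusted p = 0.149), as it was without T288P replicate 2 (0.0598), T288P+GDF11 replicate 1 (0.0717), 3 (0.0871) or 4 (0.0691). CDK1 itself (ENSG00000170312; chromosome 10, 60778331 to 60794852) had 74.4, 64.9, 55.6 and 59.8 CPM in T288P and 74.2, 76.7, 71.5 and 68.8 with GDF11 (edgeR log2 fold change 0.19 ± 0.089 SE, adjusted p = 0.162). The untreated wells of CDK1 overlapped the treated ones through T288P replicate 1. CCNB1, its mitotic cyclin, ran from 22.9 to 29.6 CPM without and from 25.3 to 34.9 with GDF11, a log2 difference of 0.23 (95% interval -0.022 to 0.47). The phosphatase CDC25B, which activates CDK1, was 38 to 49.4 CPM untreated and 52.6 to 61.4 treated, without overlap (edgeR log2 fold change 0.37 ± 0.13 SE, adjusted p = 0.0674), while CDC25C had a log2 fold change of -0.20. CCNA2 and CCNB2 differed by -0.011 and -0.037.

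**Figure D2:**
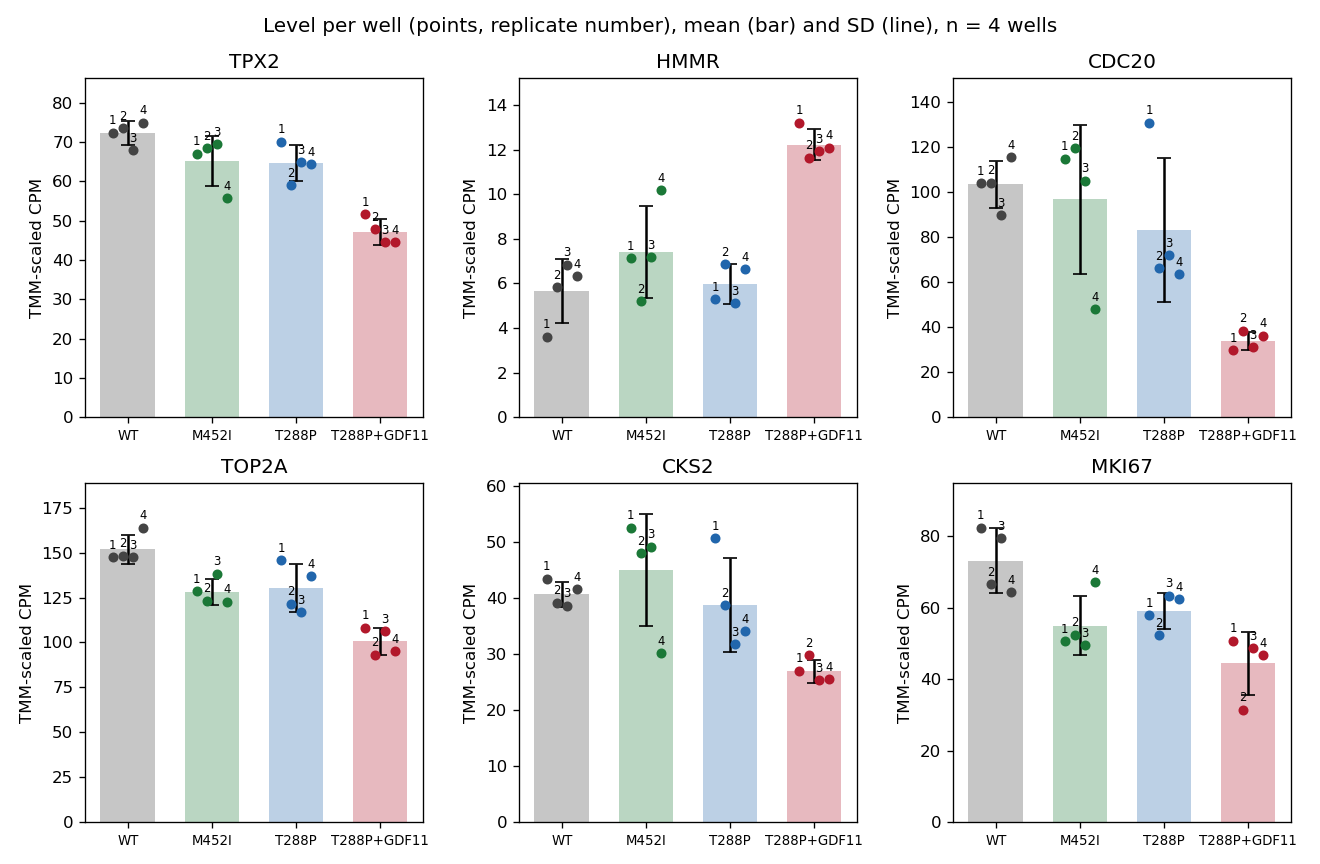
CPM per well of 6 genes in the 4 groups, with numbered points for replicates, bars for the mean (axis from 0) and lines for the SD. The T288P+GDF11 wells lie above all T288P wells for HMMR and below them for TPX2, CDC20, TOP2A, CKS2 and MKI67, and M452I 4 and T288P 1 lie apart for CDC20 and CKS2.

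The entry kinases gave no call. PLK1, which acts from mitotic entry to cytokinesis, held 14.3, 14.5, 14.5 and 12.8 CPM in T288P and 11.7, 14.1, 11.9 and 12.5 with GDF11 (log2 difference -0.16, 95% interval -0.40 to 0.078), and the centrosome kinase NEK2 had -0.077. In the spindle checkpoint, BUB3 was the most abundant at 180.2 ± 4.07 CPM in T288P and 171 ± 3.92 with GDF11, without overlap at a log2 fold change of only -0.078. BUB1, a checkpoint kinase, also did not overlap (22.4 to 23.9 and 19.2 to 20.7 CPM; edgeR log2 fold change -0.22 ± 0.088 SE, adjusted p = 0.108), and MAD2L1 had 0.27, in the other direction (edgeR adjusted p = 0.114). TTK and BUB1B differed by -0.055 and 0.19. BIRC5 and AURKB, of the chromosomal passenger complex that corrects attachments, stood at 29 ± 4.97 and 7.26 ± 0.881 CPM untreated and at 24.2 ± 1.95 and 5.95 ± 2.16 with GDF11 (log2 fold changes -0.26 and -0.28).

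None of the 5 centromere and kinetochore genes was called. CENPF, a large outer kinetochore protein, had 33.9 ± 4.19 CPM without and 37.8 ± 4.39 with GDF11, and the 5 log2 fold changes ran from -0.24 (CENPA, the centromeric histone) to 0.16 (CENPF). Of the 6 genes of the midzone and cytokinesis 0 were called, with ANLN at 95.3 ± 6.19 and 96.2 ± 4.84 CPM and log2 fold changes from -0.15 (PRC1) to 0.21 (KIF23). FOXM1, which drives much of this programme, had 4.53, 5.03, 8.32 and 5.75 CPM in T288P and 4.91, 5.25, 5.66 and 5.39 with GDF11 (log2 difference -0.15, 95% interval -0.57 to 0.27). In all, 10 of the 40 genes (25%) did not overlap between the groups, against 22% of all tested genes.

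Markers of cell types differed with GDF11 too. Of the 8 epithelial markers, CDH1, which encodes E-cadherin, fell from 341 to 232 CPM (edgeR -0.55 ± 0.083 SE on the log2 scale, adjusted p = 4.98e-04) and the basal keratin KRT5 fell from 2346 to 1731 CPM (edgeR -0.44 ± 0.085 SE on the log2 scale, adjusted p = 0.00317). The other 6 were not called, and of all 8 log2 fold changes 5 were negative and 3 positive, up to 0.25. The summed epithelial level was 12003 to 12826 CPM with GDF11 and 11975 to 13981 without. The summed endothelial markers were 2.08 to 3.47 CPM in T288P+GDF11 and 0.460 to 0.928 in T288P, the fibroblast markers 5.75 to 8.37 and 3.95 to 5.50, and the leukocyte markers 0.992 to 2.35 and 0.460 to 1.23. Of the 4 endothelial markers, PECAM1 and KDR were tested and called higher, and VWF and CDH5 were at 0 in 13 and 15 of the 16 wells. Of 6 fibroblast and 5 leukocyte markers, 2 of each were tested and 0 called. The part of these measures in the results above was not tested. DESeq2 called 8 of the 40 genes (background 18%), and without both wells that stand apart edgeR called 9 (background 13.7%), adding CDK1, CDC25B, MAD2L1 and MKI67 to the 5. With the share of ribosomal protein counts, which differed between wells, as a term in the edgeR fit, 10 were called (background 28.9%).

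M452I was compared with WT to ask what this substitution changes in the same cultures. None of the 40 genes was called, where edgeR called 4 of 16790 genes (0.0238%) and DESeq2 30 (0.179%), none of them among the 40. Unadjusted p-values under 0.05 were found for 4 of the 40 (10%) and 1058 of all genes (6.3%). The log2 fold changes were small, -0.41 to 0.39, and 29 of 40 were negative, with a median of -0.086 against 0.031 over all genes.

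The gene with the smallest p was MKI67, at 82.3, 66.5, 79.3 and 64.3 CPM in WT and 50.7, 52.4, 49.6 and 67.1 in M452I. The first 3 M452I wells were below all WT wells, and M452I replicate 4 lay within the WT range (edgeR log2 fold change -0.41 ± 0.14 SE, adjusted p = 0.73). TOP2A held 147, 148, 148 and 164 CPM in WT and 129, 123, 138 and 123 in M452I, without overlap (edgeR log2 fold change -0.24 ± 0.084 SE, adjusted p = 0.739). NEK2 did not overlap either, with 11 to 13.8 CPM in WT and 8.38 to 10.5 in M452I (edgeR log2 fold change -0.34 ± 0.13 SE, adjusted p = 0.752). These were the 2 of 40 genes (5%) without overlap, against 4.09% of all genes. ANLN was 109, 94.8, 114 and 106 CPM in WT and 83.4, 85.3, 94.4 and 106 in M452I (edgeR log2 fold change -0.20 ± 0.088 SE, adjusted p = 0.78), and the highest M452I well was again replicate 4. FOXM1 was 7.0, 4.99, 7.36 and 5.95 and 4.03, 4.42, 4.14 and 6.49 CPM (edgeR log2 fold change -0.41 ± 0.20 SE, adjusted p = 0.796), and HMMR 3.61, 5.85, 6.84 and 6.34 and 7.14, 5.2, 7.17 and 10.2 CPM (edgeR log2 fold change 0.39 ± 0.20 SE, adjusted p = 0.812). Both sets overlapped.

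The core of the mitotic switch did not pass the test, and its intervals bound what could have been missed. CDK1 was 66.9, 72.6, 71.7 and 71.9 CPM in WT and 58.4, 64.2, 69.2 and 70.7 in M452I, a log2 difference of -0.11 (95% interval -0.30 to 0.077). CCNB1 differed by -0.054 (95% interval -0.30 to 0.19), PLK1 by -0.14 (95% interval -0.38 to 0.099) and CDC20 by -0.095 (95% interval -0.65 to 0.46). The wide interval of CDC20 comes with its M452I wells of 115, 119, 105 and 48 CPM, of which replicate 4 was the low one. Without both wells that stand apart, edgeR called 2 of the 40 genes lower in M452I, MKI67 (log2 fold change -0.52; edgeR adjusted p = 0.04) and CENPF, where 3.72% of all genes were called.

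T288P, like M452I, gave 0 called genes of 40 against WT, where edgeR called 7 genes of 16790 (0.0417%) and DESeq2 77 (0.459%). Of the 40, 33 were negative, with a median of -0.077 against 0.017 over all genes, and 4 had an unadjusted p under 0.05 (background 8.49%). T288P and M452I were compared with the same 4 WT wells, so these signs are not independent of each other. NEK2 had the smallest p, at 11.4, 11, 13.8 and 11.9 CPM in WT and 9.2, 8.71, 8.84 and 9.28 in T288P, without overlap (edgeR log2 fold change -0.42 ± 0.13 SE, adjusted p = 0.37). TOP2A and MKI67 were the other 2 of 3 genes (7.5%) without overlap, against 5.04% of all genes. TOP2A had 146, 122, 117 and 137 CPM in T288P, all under the WT range of 147 to 164 (edgeR log2 fold change -0.22 ± 0.084 SE, adjusted p = 0.489), and MKI67 52.2 to 63.3 against 64.3 to 82.3 (edgeR log2 fold change -0.31 ± 0.14 SE, adjusted p = 0.565).

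PRC1, which bundles the central spindle, was 53.9, 49.1, 51.3 and 52.6 CPM in WT and 51.4, 39.3, 38.8 and 43.7 in T288P (edgeR log2 fold change -0.26 ± 0.10 SE, adjusted p = 0.533). Its first T288P well lay within the WT range and the other 3 below it. PRC1 shares 57.57% of its exon bases with an overlapping gene on the same strand, AC068831.7, so its level is uncertain. TPX2 was 67.9 to 74.9 CPM in WT and 59 to 70.1 in T288P (edgeR log2 fold change -0.16 ± 0.084 SE, adjusted p = 0.621), and UBE2C 12.2 to 16.1 and 8.53 to 14 CPM (edgeR log2 fold change -0.29 ± 0.16 SE, adjusted p = 0.636). Both overlapped. CDK1 differed by -0.15 (95% interval -0.34 to 0.034), CCNB1 by -0.061 (95% interval -0.31 to 0.19), PLK1 by -0.024 (95% interval -0.26 to 0.22) and FOXM1 by -0.10 (95% interval -0.52 to 0.32) on the log2 scale. Without both wells that stand apart, 3 of the 40 genes were called lower in T288P, TOP2A (edgeR adjusted p = 0.0486), PRC1 (0.0482) and CDC20, where 4.06% of all genes were called.

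**Figure D3:**
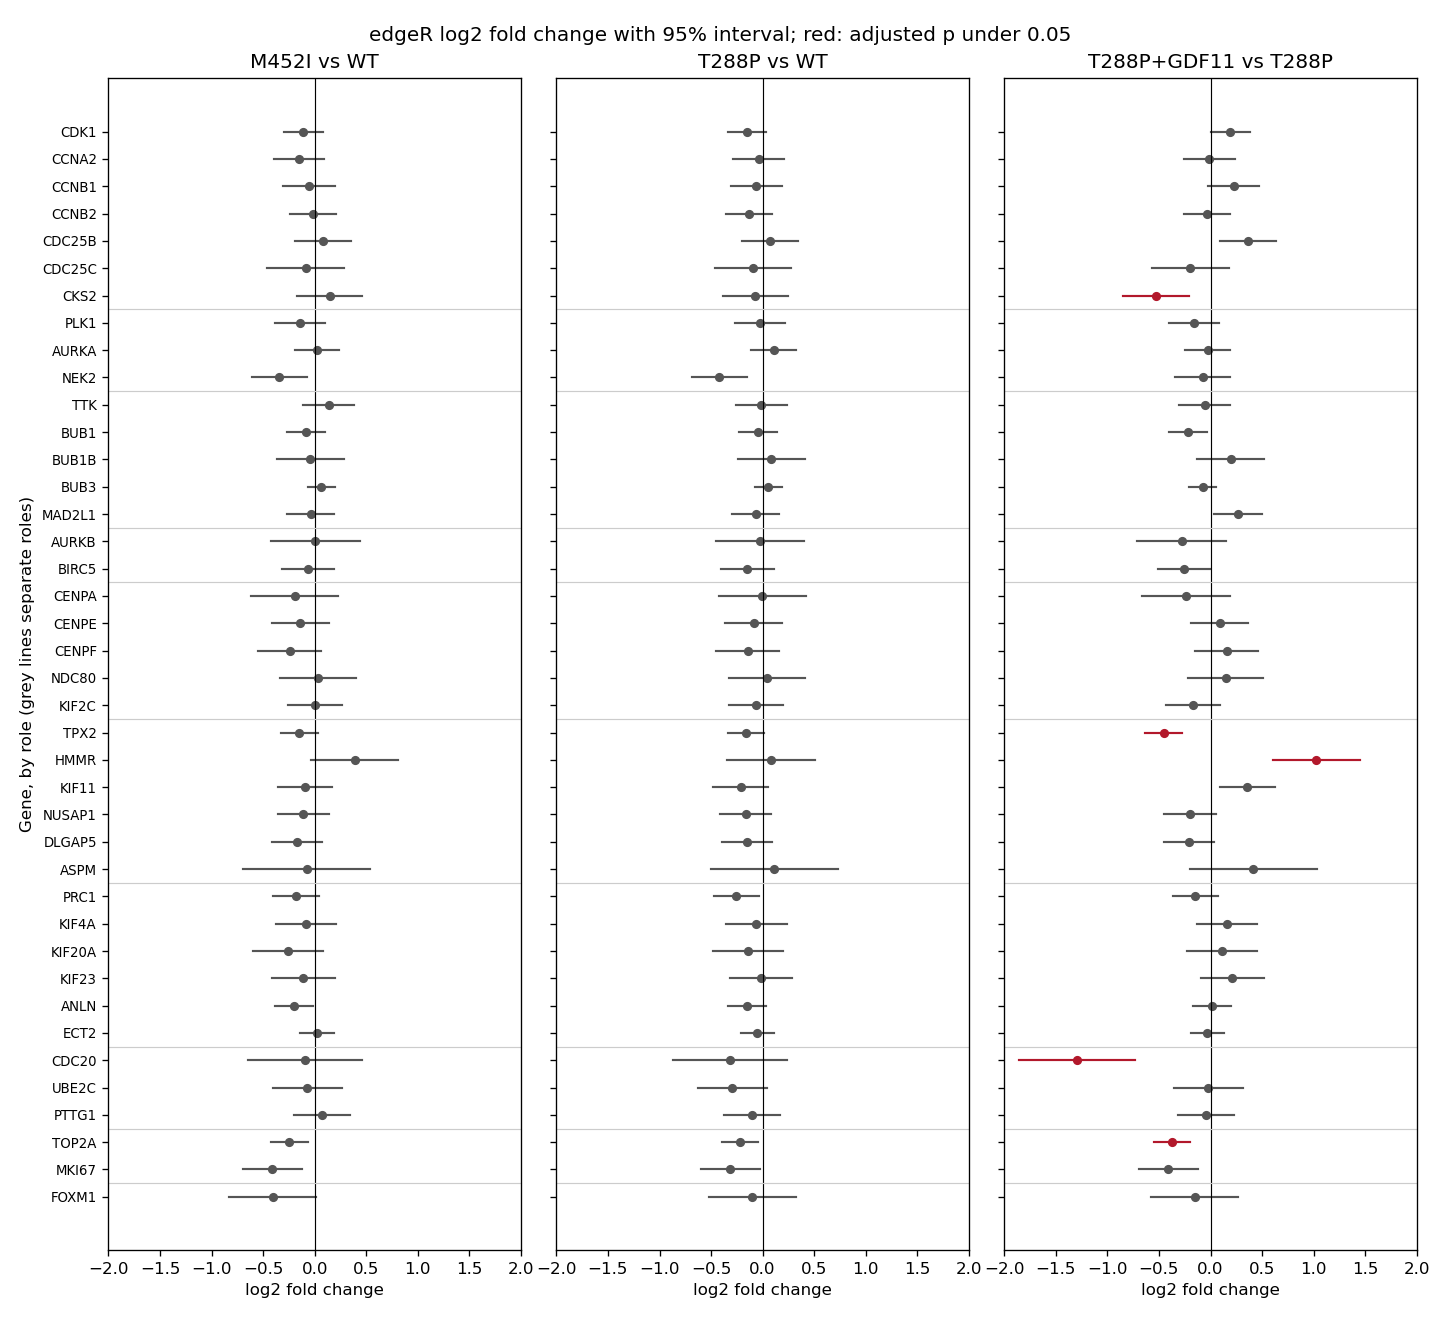
Log2 fold change of each gene in the comparisons of M452I with WT, T288P with WT and T288P+GDF11 with T288P, with 95% intervals from the edgeR fit and red for an adjusted p under 0.05. Red points appear only in the third panel, CKS2, TPX2, CDC20 and TOP2A to the left of 0 and HMMR to the right at 1.03.

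Between the alleles, M452I against T288P, 0 of the 40 genes were called (edgeR called 1 gene in all, 0.00596%, and DESeq2 3, 0.0179%), and 0 of the 40 had an unadjusted p under 0.05 (background 2.18%). The smallest p-values were those of HMMR (edgeR log2 fold change 0.31 ± 0.20 SE, adjusted p = 1), FOXM1 (edgeR log2 fold change -0.31 ± 0.20 SE, adjusted p = 1) and CKS2 (edgeR log2 fold change 0.21 ± 0.15 SE, adjusted p = 1), and 0 of the 40 were without overlap (background 1.2%). This result changed when the wells that stand apart were left out. Without M452I replicate 4 and T288P replicate 1, edgeR called 8 of the 40 genes, 3 higher and 5 lower in M452I, where 14.1% of all genes were called. They were CKS2 (log2 fold change 0.52; edgeR adjusted p = 0.00205), FOXM1 (-0.59; 0.0474), CDC20, PTTG1, BUB1B, CENPF, ASPM and KIF23. In the wells that remained, CDC20 was 105 to 119 CPM in M452I and 63.5 to 71.9 in T288P. The wells left out held 48 CPM in M452I and 131 in T288P, and with them the groups overlapped. Both wells were chosen after the data were seen, and their labels could not be checked. The part of that choice or of the labels in this separation was not tested. These calls therefore do not show a difference between the alleles.

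Against WT, the T288P line with GDF11 had 13 of 40 genes called (32.5%), 2 higher and 11 lower, where 28.9% of all genes were called (13.8% higher, 15.1% lower). This contrast mixes the allele and the treatment. TPX2 fell from 72.2 ± 3.05 CPM in WT to 47.1 ± 3.37 (edgeR log2 fold change -0.61 ± 0.085 SE, adjusted p = 6.43e-05). TOP2A fell from 152 ± 8.07 to 101 ± 7.61 CPM (edgeR log2 fold change -0.59 ± 0.085 SE, adjusted p = 8.66e-05) and CDC20 from 103 ± 10.6 to 33.8 ± 4.16 CPM (edgeR log2 fold change -1.61 ± 0.27 SE, adjusted p = 5.18e-04). The others called were HMMR and CDC25B, higher, and MKI67, NEK2, CKS2, PRC1, BIRC5, DLGAP5, NUSAP1 and BUB1, lower. For all 13 the wells did not overlap, and 35.1% of all genes did not overlap. Summed over the 40 genes, the mean levels over 4 wells were 1564 ± 50.9 CPM (SD) for WT, 1470.4 ± 33.6 for M452I, 1448 ± 73 for T288P, and 1352 ± 48.7 for the line with GDF11, as a description without a test. The order of these sums depends on TMM scaling and on abundant genes. As a share of unscaled counts, the 40 genes held 0.141% to 0.159% with GDF11, 0.140% to 0.152% in T288P and 0.145% to 0.159% in WT. In M452I the share was 0.127% to 0.134% in replicates 1 to 3 and 0.168% in replicate 4. The mean log2 CPM of the 40 genes was 4.70 ± 0.065 in WT, 4.61 ± 0.077 in M452I, 4.60 ± 0.049 in T288P and 4.56 ± 0.062 with GDF11. Without both wells that stand apart, edgeR called 15 of the 40 against WT, where 36.3% of all genes were called.

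The untreated wells spread widely for some of these genes. Over the 12 wells without GDF11 the highest well exceeded the lowest 2.82-fold for HMMR, 2.72-fold for CDC20, 2.59-fold for ASPM and 2.06-fold for FOXM1, with a median of 1.51-fold and a lowest value of 1.12-fold over the 40 genes. M452I replicate 4 lay above the other M452I wells for 21 of the 40 genes and below them for 9. It was lowest for CDC20 (48 CPM against 105 to 119), CKS2, PTTG1, UBE2C and TPX2. It was highest for ASPM (50.4 CPM against 19.5 to 23.2), BUB1B, CENPF, KIF23 and HMMR. T288P replicate 1 differed from its group in other directions, with CDC20 at 131 CPM against 63.5 to 71.9, CKS2 at 50.6 and ASPM at 22.3 against 32.3 to 41, and lay above its group for 14 genes and below it for 15.

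**Figure D4:**
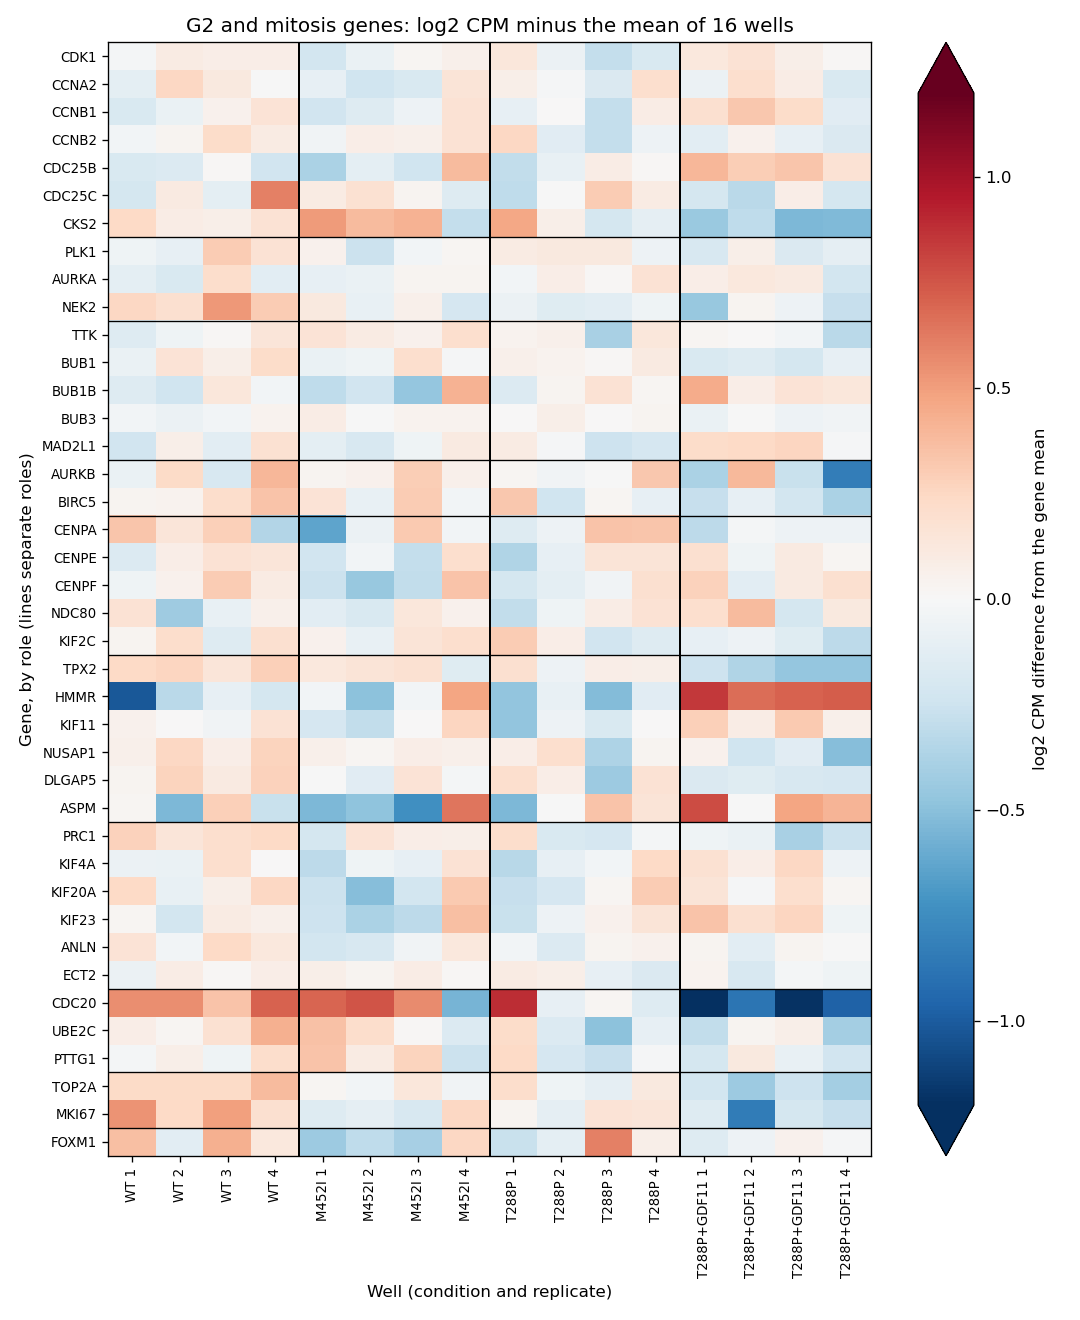
Log2 CPM of each of the 40 genes (in order of role) in each of the 16 wells, as the difference from the gene's mean over all wells, with colours capped at the ends of the scale. CDC20 is red in WT, in M452I 1 to 3 and in T288P 1 and blue in M452I 4 and the T288P+GDF11 wells, and HMMR is red in those wells with GDF11 and in M452I 4.

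The departure of M452I replicate 4 was set beside the GDF11 comparison, with which it shares no well. Over the 40 genes, its log2 difference from the mean of the other M452I wells and the log2 fold change with GDF11 had a Pearson r of 0.756 and a Spearman rho of 0.717, with the same sign for 29 genes (72.5%) and opposite signs for 11. The same measures over all 16790 tested genes were 0.361, 0.442 and 68.4%, and on the first principal component the T288P+GDF11 wells scored 44.1 to 63.6, the side on which M452I replicate 4 lay at 37.5. M452I replicate 4 was picked for lying apart from its group, also on this component, so the likeness is not an independent check. The GDF11 comparison also includes T288P replicate 1, the other well that stands apart. The points are genes of a common programme and are not independent, and no p is given. CDC20 was -1.23 in that well and -1.29 with GDF11, CKS2 -0.72 and -0.53, and HMMR 0.66 and 1.03. MKI67 and FOXM1 had opposite signs, at 0.40 and 0.62 in the well and -0.41 and -0.15 with GDF11. The well's differences had a Spearman rho over the 40 genes of 0.539 with the length of the longest transcript and -0.233 with its GC content. For the log2 fold changes with GDF11 these were 0.28 and -0.409, and the part of length or GC content in either was not tested.

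**Figure D5:**
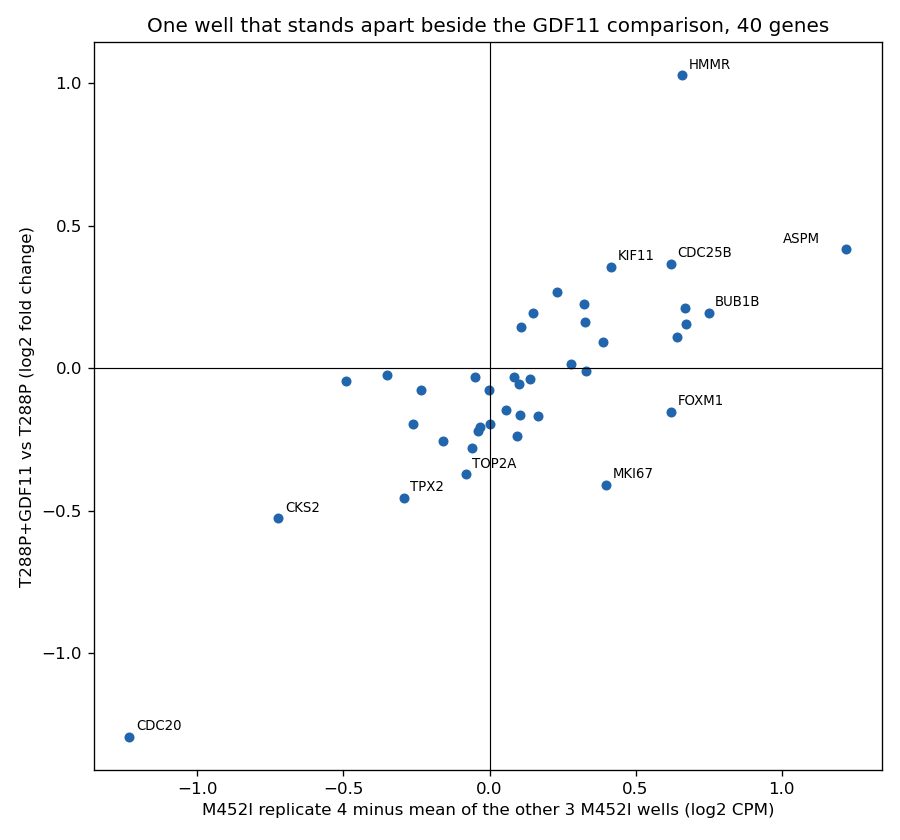
Each point is 1 of the 40 genes, with the log2 CPM of M452I replicate 4 minus the mean of the other 3 M452I wells on the horizontal axis and the log2 fold change of T288P+GDF11 against T288P on the vertical axis. CDC20 and CKS2 lie low on both axes and HMMR high on both, while MKI67 and FOXM1 lie to the right of 0 and below 0.

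Other cell cycle genes were counted in the same comparison. Of 52 other mitosis genes, 2 were called (3.85%, against 12.9% of all genes): FBXO5, an inhibitor of the anaphase-promoting complex, rose from 4.19 to 6.69 CPM (edgeR 0.67 ± 0.17 SE on the log2 scale, adjusted p = 0.0133), and the condensin subunit NCAPD2 fell from 70.2 to 54.3 CPM (edgeR -0.37 ± 0.092 SE on the log2 scale, adjusted p = 0.0135). Of 14 regulators of the programme, 1 was called (7.14%), the pocket protein RBL1, a DREAM subunit, which rose from 2.7 to 4.49 CPM (edgeR 0.73 ± 0.24 SE on the log2 scale, adjusted p = 0.0481). Of 37 tested S phase genes, 4 were called (10.8%), and 12 (32.4%) did not overlap between the groups, against 22% of all genes. The replication factors MCM10 and MCM3 rose from 1.41 to 3.92 CPM (edgeR 1.46 ± 0.30 SE on the log2 scale, adjusted p = 0.00466) and from 7.64 to 15.4 CPM (edgeR 1.01 ± 0.30 SE on the log2 scale, adjusted p = 0.0335), and PCNA rose as well. RRM2, the small subunit of ribonucleotide reductase, fell from 77.5 to 51.2 CPM (edgeR -0.60 ± 0.14 SE on the log2 scale, adjusted p = 0.0106). The median log2 fold changes were -0.017, -0.10 and 0.038, each near the -0.015 of all genes or, for the regulators, below it. In M452I and in T288P against WT, edgeR called 0 genes of these 3 lists, with unadjusted p under 0.05 for 6 and 5 of the 52, 3 and 4 of the 14, and 4 and 3 of the 37, where 6.3% and 8.49% of all genes had one.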

How the data were processed

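RNA of 16 wells in 4 conditions was sequenced, 1 library each. The table deposited by the authors holds raw, whole-number counts per gene. HISAT2 and StringTie 2.2.1 were used on GRCh38, per the submitters' processing notes. How reads were counted, and against which annotation and strand, is not given in the sources used here. Since 1 and 2 were about equally frequent counts, mates of a pair may have been counted separately. Levels of genes that overlap another gene are uncertain, as strandedness is unknown.

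In R 4.3.3, edgeR 4.0.16 (TMM, filterByExpr with a minimum count of 10, robust quasi-likelihood F test) was fitted to all 16 libraries with 1 term per condition. P-values were adjusted by Benjamini-Hochberg over 16790 genes, and a gene was called under 0.05. SEs were obtained from each fold change and its F statistic. CPM use TMM-scaled library sizes. Totals were 28.5 to 50.8 M counts, which limits precision for genes of few CPM, such as CENPA and NDC80. Each allele is 1 line and nothing in the labels says more of the wells than that they are separate, so p-values measure the spread between wells.

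Coordinates and exon lengths are from GENCODE 29 (GRCh38). The genes, lists and wells left out were chosen with earlier results of these data known. In the comparisons of each allele with WT and of GDF11 with T288P, called genes were named, up to 10 by p, or the 6 smallest p where fewer than 6 were called, plus MKI67, TOP2A, CDK1, CCNB1, PLK1 and FOXM1. In the other comparisons the 3 smallest p were named. The gene of highest mean CPM in each role and PCSK5 were also named. Other genes were named after their values were seen. The step was tested on simulated data for T288P+GDF11 against T288P, in which few genes were changed. It recovered 29 of 95 genes changed 1.5-fold and 49 of 94 changed 2-fold, with 3 false calls. A gene that was not called may therefore still differ. Alternatives were DESeq2 1.42.0, limma-voom 3.58.1, RLE scaling, other filters, 2 groups only, a replicate block and leaving out wells.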

Additional observations from a re-analysis of the deposited data

Results flagged for a closer look

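Within the groups of 4 wells, 14 of 160 values of a gene in a group had an outermost well whose gap to the next exceeded Dixon's 95% critical value, where chance alone gives about 1 in 20. In M452I, replicate 4 was such a well for 4 genes: ASPM at 50.4 CPM (other wells 19.5 to 23.2), KIF23 at 32.8 (19.7 to 21.6), MKI67 at 67.1 (49.6 to 52.4) and FOXM1 at 6.49 (4.03 to 4.42). In T288P, replicate 1 was such a well for CDC20 at 131 CPM (63.5 to 71.9), the gene that fell most with GDF11. The values of these 2 wells bear on the comparisons in which they stand, as given above.

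The other 9 were spread over the wells. In WT, CDK1 was low in replicate 1 at 66.9 CPM, AURKA high in replicate 3 at 25.1, and TOP2A high in replicate 4 at 164 against 147 to 148. AURKB was high in M452I replicate 3 at 8.4 CPM and in T288P replicate 4 at 8.56, and PLK1 was low in T288P replicate 4 at 12.8 against 14.3 to 14.5. With GDF11, replicate 4 was low for AURKA at 18.7 CPM and for MAD2L1 at 27.8, and replicate 1 for CENPA at 3.82.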

How the results depend on the processing

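The count of called genes among the 40 for T288P+GDF11 against T288P, 5, became 8 with DESeq2, 9 without M452I replicate 4 and T288P replicate 1, and 10 with the percentage of ribosomal protein counts in the fit. The last 2 were chosen after seeing the data. Without those wells the counts were also 2 for M452I against WT, 3 for T288P against WT and 8 for M452I against T288P, all 0 in the fit of all wells. Leaving out 1 well at a time gave 4 to 6 for T288P+GDF11 against T288P, 9 to 12 for T288P+GDF11 against WT and 0 for the other comparisons. In every alternative run, TPX2, HMMR, CDC20 and TOP2A were called with GDF11 in the same direction. CKS2 was lost in 6, without the filter on low counts (edgeR adjusted p = 0.0515) and in 5 of the 8 fits without 1 well, and MKI67 was gained in 5. The cause of these changes was not tested.

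Of 595 values of single genes under an alternative, 569 kept their direction and their side of the threshold, 11 passed it, 6 no longer passed, and 9 changed sign, none of them called. For T288P against WT without 1 well, the log2 fold change of FOXM1 ran from -0.31 to 0.014, with the positive value without T288P replicate 1, and was 0.0043 without both wells. That of CCNB1 ran from -0.11 to 0.0058, positive without T288P replicate 3 (0.0034) and WT replicate 4, and that of PLK1 from -0.077 to 0.058, positive without T288P replicate 4 (0.019), WT replicate 3 and WT replicate 4 (0.0098). For M452I against WT, CCNB1 ran from -0.14 to 0.0063, positive without WT replicate 4. For T288P+GDF11 against T288P, FOXM1 ran from -0.24 to 0.055, positive without T288P replicate 3.

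The replicate numbers are shared between groups, but same-numbered wells did not deviate together (r -0.197 to 0.174, mean -0.0094, against 0.0029 for other pairs), and 2 of 16 wells correlated best with their own number. With the number as a replicate block, 0, 0 and 6 of the 40 genes were called in the 3 main comparisons, 0 for M452I against T288P and 12 for T288P+GDF11 against WT.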
